A study of Zea mays with 15 samples.

Results

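The 6 maize expansins described here are the beta-expansins expB4, expB6, expB8 and EXPB9 and the alpha-expansins expa1 and EXPA5, followed through the meristem of an elongating internode after a spray of ethephon. They were chosen by gene symbol in the array's annotation and are read by 8 probe sets, out of 17621 probe sets other than controls on the array. That annotation gives exactly 1 gene to 1452 probe sets, which together stand for 1108 genes. Of the 8 expansin probe sets, 6 reached the minimum mean signal set for testing, and the remaining pair, that of EXPB9 and the third of expB8, did not.

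All 15 Affymetrix Maize Genome arrays were hybridised with RNA of maize (Zea mays) grown in a greenhouse to the jointing stage with 8 leaves. The tissue was the meristem of the seventh internode, and each RNA came from 3 seedlings. The untreated group was collected at 0 h. The water groups were sprayed with water and collected at 24 h and 48 h, and the ethephon groups received ethephon at 600 mg/L and were collected at the same times. Ethephon breaks down to ethylene once it is taken up by the plant and is used to shorten stems. Each of the 5 groups has 3 arrays, which the labels call biological replicates. The labels give no genotype, and an internode meristem sampled whole holds several cell types. The comparison of ethephon with water at each time asks how the spray changed transcript levels in tissue that is still growing.

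Expansins are secreted proteins that loosen the primary wall at acid pH, without cutting its polymers, and so let turgor stretch a cell. They act together with plasma membrane proton pumps, which acidify the wall, and with cellulose synthases and wall-modifying enzymes, which build and remodel it. Plants have alpha- and beta-expansins, and grasses, whose walls are rich in arabinoxylan, have an enlarged beta family that also includes the group-1 allergens of grass pollen.

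The deposited values are linear MAS5 signals, a brightness summary in arbitrary units. Differences between groups are read within 1 probe set. Between probe sets the signal serves only for the minimum and for calling a probe set bright or dim. Array medians lay between 297.8 and 370.4. Of the meristem and division markers, 5 of 8 genes passed the minimum signal of 218.3, namely the homeobox genes kn1 (mean signal 3540) and lg3 (944.4), the replication clamp genes pcna1 (1174) and pcna2 (1519), and the cyclin cycD2 (2285), while the mitotic cyclins cyc1, cyc2 and cyc3 had means between 55.83 and 101.5. Of the mature leaf markers, rbcS, the small subunit of Rubisco, was bright at 7060 and Ppdk1, pyruvate phosphate dikinase, passed at 700.2 in its brightest probe set. The other Ppdk1 probe sets, with means between 35.38 and 190.8, did not pass. The leaf enzymes pep1 (86.2) and me3 (105.2), and the pollen profilin PRO1 (56.35), stayed under the minimum. The log2 ratio of the 3' to the 5' probe sets of 5 control transcripts was taken as a measure of how complete the RNA was. A higher ratio means less signal from the 5' end, and so less complete RNA. The mean ratio was 1.67 ± 0.77 (SD, n = 3) in untreated arrays. In the water arrays it was 2.86 ± 0.30 at 24 h and 2.06 ± 0.36 at 48 h. In the ethephon arrays it was 2.97 ± 0.16 at 24 h and 2.71 ± 0.07 at 48 h. It therefore differed between groups that are compared below, and beyond a fit that carries it as a covariate its part in the expansin differences was not tested.

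No expansin passed limma's test at a Benjamini-Hochberg adjusted p of 0.05 in any comparison. The lowest p-value belonged to expa1, which was lower in water-sprayed tissue at 24 h than in untreated tissue, the only expansin difference with an interval that did not include 0. Next came lower expB4 in water-sprayed than in untreated tissue, a lower signal of the main expB8 probe set after ethephon at both times, and a lower expa1 at 48 h after ethephon, each with an interval that included 0. The 5 groups accounted for 15.2% of the variance of expB6 and 2.28% of that of EXPA5. The share was 16.2% for the second expB8 probe set, and the median over all tested probe sets was 34.9%.

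**Figure D1:**
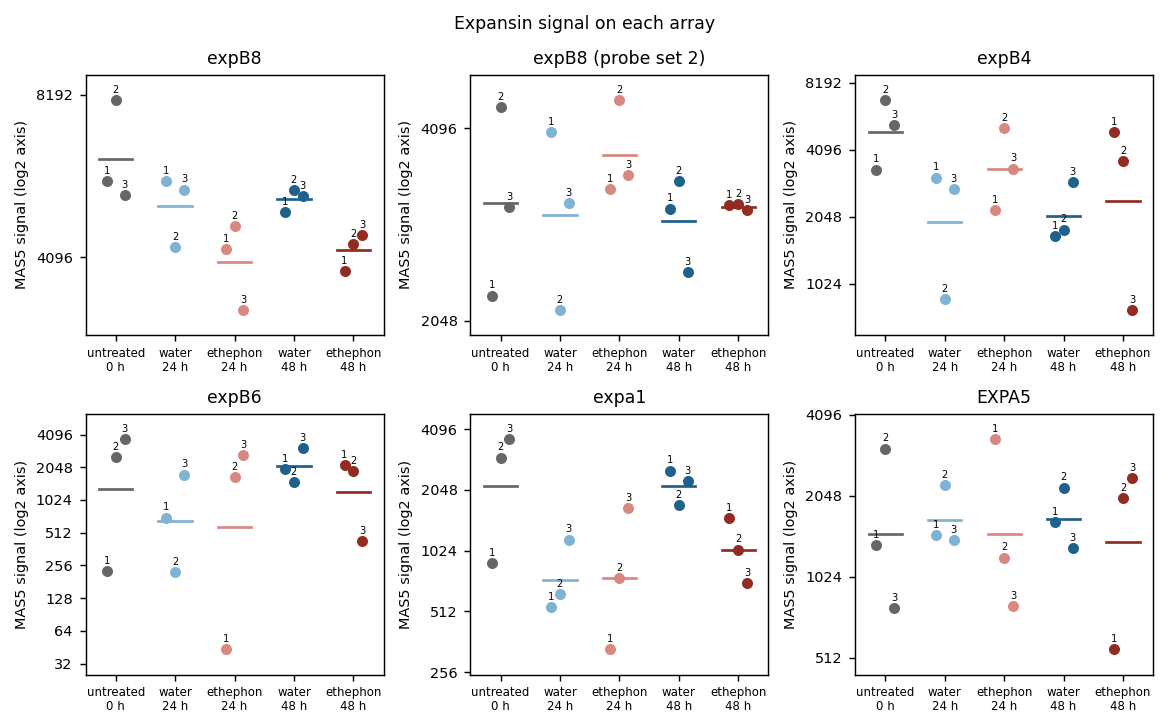
Signal of the 6 tested expansin probe sets on each array, with a log2 vertical axis of its own for each panel. Points are arrays with their replicate number, and bars are means of log2 signal for the 5 groups. At 48 h the ethephon arrays lie below the water arrays for expB8 and expa1, while expB6 spans 43.25 to 2657 within the ethephon group at 24 h alone.

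Among the beta-expansins, expB8 (RefSeq gene LOC542496) was the steadiest. Its signals were 5660, 8014 and 5345 in untreated tissue, 5656, 4275 and 5463 in water tissue at 24 h, and 4239, 4671 and 3270 in ethephon tissue at 24 h. At 48 h they were 4971, 5452 and 5319 after water and 3860, 4333 and 4499 after ethephon. All 6 ethephon arrays lay between 3270 and 4671, and of the 9 other arrays only water replicate 2 at 24 h (4275) fell into that range. At 24 h the groups therefore overlapped by that array, and at 48 h they did not overlap. The group means were 5131 ± 748 and 4060 ± 717 at 24 h and 5248 ± 248 and 4231 ± 332 at 48 h (SD, n = 3), for water and ethephon in that order. The log2 difference between ethephon and water was -0.34 ± 0.17 (SE) at 24 h, with a 95% interval from -0.72 to 0.03 and a limma adjusted p of 0.563. At 48 h it was -0.31 ± 0.17 (interval -0.69 to 0.06, adjusted p 0.994). As ratios, the ethephon signal was 0.788 times the water signal at 24 h (interval 0.607 to 1.02) and 0.805 times at 48 h (0.62 to 1.05). The 24 h difference was -0.20 without ethephon replicate 3 and -0.14 with array weights, and the 48 h difference was -0.18 with the 3' to 5' ratio as a covariate. In such bulk tissue, fewer cells of a type that holds the transcript and less transcript per cell cannot be told apart.

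A second probe set of expB8 did not show this order. It read 4045, 2128 and 3128 after water and 3288, 4539 and 3461 after ethephon at 24 h. At 48 h it read 3067, 3385 and 2438 after water and 3106, 3113 and 3050 after ethephon. Ethephon was thus above water in the mean at both times with overlapping arrays, by 0.31 ± 0.26 (interval -0.25 to 0.88) and 0.07 ± 0.26 (-0.49 to 0.64) on the log2 scale. Over the settings with all arrays the 24 h value ran from 0.25 to 0.64. Its limma adjusted p was 0.635 in the main fit and 0.0966 with array weights. That was the lowest adjusted p of any expansin for ethephon against water at 24 h, and it belonged to a higher signal. Over the 15 arrays the 2 probe sets correlated at r = 0.21 (Spearman rho 0.11, permutation p 0.45 for r), and their deviations from the group means at r = 0.71 (exact permutation within groups p = 0.0611, adjusted over 15 pairs of expansin probe sets 0.202). The third probe set of expB8 ranged from 143 to 309.3 and was too dim to test. The lower expB8 signal after ethephon therefore rests on 1 of the 2 tested probe sets of the gene.

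The beta-expansin expB4 (LOC541909) was highest in untreated tissue. Its signals there were 3335, 6876 and 5283, against 3075, 874.9 and 2732 in water tissue at 24 h and 1683, 1796 and 2942 at 48 h. Every untreated array lay above every water array at either time, although the lowest untreated value (3335) was close to the highest water value (3075). The mean was 5165 ± 1770 in untreated tissue, 2227 ± 1180 at 24 h and 2141 ± 697 at 48 h after water (SD, n = 3). The log2 difference was -1.35 ± 0.65 at 24 h (interval -2.75 to 0.05, unadjusted p 0.0583, limma adjusted p 0.284) and -1.26 ± 0.65 at 48 h (interval -2.66 to 0.15, adjusted p 0.57). Both comparisons use the same untreated arrays. At 24 h the value rested on water replicate 2 more than on any other array, and without it the difference was -0.77. Untreated replicate 2, which gave the highest expB4 and the highest expB8 signal, also had the lowest 3' to 5' log2 ratio of all untreated arrays, 0.783 against 2.033 and 2.192. With that ratio as a covariate the expB4 differences were -1.5 at 24 h (adjusted p 0.852) and -1.31 at 48 h (adjusted p 0.727). In the same fit the expB8 difference between water at 24 h and untreated tissue was -0.05, against -0.29 without the covariate, and that of EXPA5 was 1.64 (adjusted p 0.814), against 0.17.

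After ethephon, expB4 read 2192, 5147 and 3370 at 24 h and 4932, 3648 and 781.2 at 48 h. These arrays overlapped the water arrays of the same time, and at 48 h both the highest and the lowest array of the 6 were ethephon arrays. The log2 difference from water was 0.79 ± 0.65 at 24 h (interval -0.61 to 2.19, adjusted p 0.633) and 0.22 ± 0.65 at 48 h (-1.18 to 1.62, adjusted p 0.996). The 24 h value was 0.21 without water replicate 2 and 1.43 with array weights. At 48 h the sign turned with single arrays, from -0.296 to 1.03 when each array of the pair of groups was left out in turn.

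The most variable expansin was expB6 (LOC542566). It read 227.9, 2535 and 3724 in untreated tissue, 705.3, 223.9 and 1750 in water tissue and 43.25, 1663 and 2657 in ethephon tissue at 24 h. At 48 h the values were 1980, 1487 and 3071 after water and 2155, 1895 and 425.5 after ethephon. In the untreated group and both ethephon groups 1 array was far below the others. The water arrays at 24 h were spread about evenly on the log2 scale, and the water group at 48 h had no such low array. The ratio of the highest to the lowest array within a group was 16.3 in untreated tissue, 7.81 and 61.4 for water and ethephon at 24 h, and 2.07 and 5.06 at 48 h. The difference of ethephon from water was correspondingly loose, -0.18 ± 1.44 at 24 h (interval -3.30 to 2.94, adjusted p 0.966) and -0.79 ± 1.44 at 48 h (-3.91 to 2.33, adjusted p 0.994). A ratio anywhere from 0.102 to 7.7 at 24 h lay within the interval, so these arrays set only wide bounds on a change of expB6. Leaving out ethephon or water arrays in turn moved the 24 h value between -1.28 and 1.69. The 48 h value rested on ethephon replicate 3 (425.5), and without it the difference was -0.0438. It was -0.44 with array weights.

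EXPB9 (LOC542106, with the synonym EXPB1B) gave almost no signal. Its 15 values lay between 15.94 and 30.44, at the 6.03rd percentile of mean signal, and the group means ran from 19.68 to 27.19. It was under the minimum signal and was not tested. The values give no level for EXPB9 beyond being among the dimmest on the array.

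The alpha-expansin expa1 (LOC541904) had the lowest values at 24 h. The untreated arrays read 891.2, 2959 and 3652, the water arrays 535.7, 624.2 and 1161 at 24 h and 2550, 1714 and 2256 at 48 h. Ethephon arrays read 332, 750.1 and 1665 at 24 h and 1486, 1035 and 706 at 48 h. In water tissue the mean of expa1 was thus below the untreated mean at 24 h and near it at 48 h, and neither difference passed limma's test. At 48 h all 3 ethephon arrays lay below all 3 water arrays. The times were not tested against each other within water or within ethephon tissue. The mean was 2173 ± 424 after water and 1076 ± 392 after ethephon at 48 h (SD, n = 3). The log2 difference was -1.06 ± 0.60 (interval -2.36 to 0.24, unadjusted p 0.1, limma adjusted p 0.994), a ratio of 0.479 with an interval from 0.195 to 1.18. It lay between -1.33 and -0.79 when single arrays were left out. At 24 h the ethephon arrays spanned the water arrays and the difference was 0.03 ± 0.60 (-1.27 to 1.33, adjusted p 0.984). The change of the ethephon response between the times was tested directly and was -1.09 ± 0.85 (interval -2.93 to 0.74, adjusted p 1), so the responses at 24 h and 48 h were not distinguished.

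Water tissue at 24 h against untreated tissue gave the lowest p-value of any expansin, for expa1. The log2 difference was -1.54 ± 0.60 (interval -2.84 to -0.25, unadjusted p 0.0232, limma adjusted p 0.193). Untreated replicate 1 (891.2) lay within the range of the water arrays, and without it the difference was -2.17 with an adjusted p of 0.0797. Over all single arrays left out, the difference ran from -2.17 to -1.16, and the adjusted p reached 0.536 without untreated replicate 2. It was -0.96 with array weights (adjusted p 0.355) and -1.5 with the 3' to 5' ratio as a covariate (adjusted p 0.849). At 48 h the difference from untreated tissue was 0.01 ± 0.60 (adjusted p 0.999). Spray and time since the start of the experiment changed together between the untreated and the water arrays and cannot be told apart.

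EXPA5 (LOC541907) had nearly the same mean in every group. The means were 1734 ± 1190 in untreated tissue, 1704 ± 473 and 1778 ± 1360 for water and ethephon at 24 h, and 1713 ± 450 and 1651 ± 971 at 48 h (SD, n = 3). Single arrays ranged widely, from 551 to 2388 in ethephon tissue at 48 h, and from 795.2 to 3331 in ethephon tissue at 24 h. The differences of ethephon from water were -0.18 ± 0.64 (interval -1.56 to 1.20) and -0.28 ± 0.64 (-1.66 to 1.11) on the log2 scale. Their sign turned when single arrays were left out. The groups accounted for 2.28% of the variance of log2 EXPA5 signal, a share at the 0.322nd percentile of the 10573 tested probe sets, for which the median was 34.9%.

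**Figure D2:**
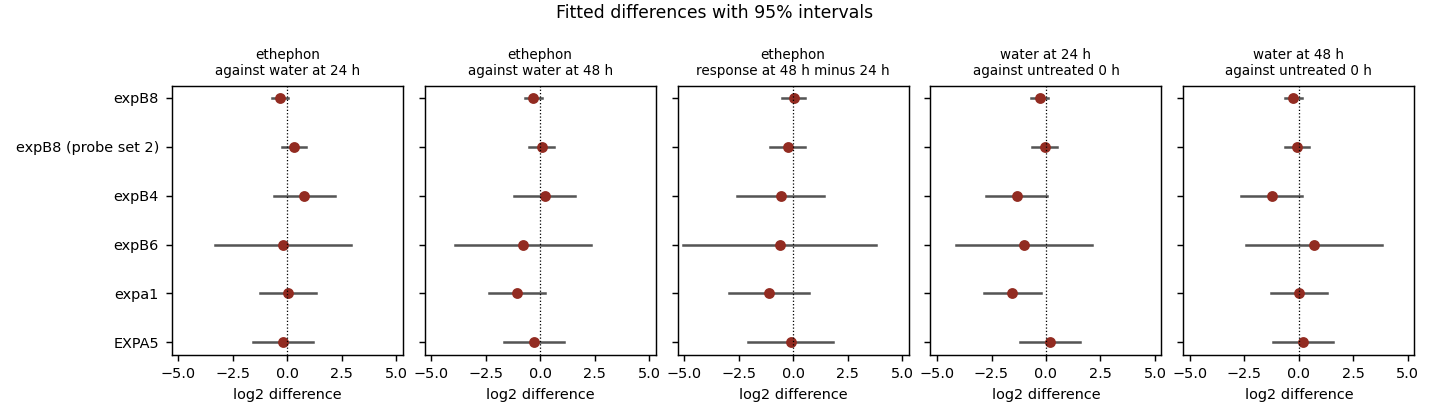
Fitted log2 differences of the 6 expansin probe sets (points) with 95% intervals (lines) in the 5 comparisons. The interval of expa1 between water at 24 h and untreated tissue, from -2.84 to -0.25, is the only one of the 30 that does not reach 0.

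Read together, 0 of the 6 tested expansin probe sets passed limma's test in each of the 5 comparisons. Over all 10573 probe sets the calls were also few, 0% for ethephon against water at 24 h, 0% at 48 h, 0% for the change between the responses, 1.72% (182 probe sets) for water at 24 h against untreated and 0.794% (84) for water at 48 h against untreated. At an unadjusted p under 0.05 the expansins counted 0, 0, 0, 1 and 0 in that order, and all tested probe sets 951, 343, 98, 2000 and 1048. Groups whose 3 arrays did not overlap were counted apart from the test. At 24 h after ethephon none of the 6 (0) was separate from water in this way, with 17.8% of all probe sets separate. At 48 h expB8 and expa1, 2 of 6, were separate and lower, with 9.03% of all probe sets separate in either direction. Against untreated tissue, expB4 alone (1 of 6) was separate and lower, both in water at 24 h, with 23.6% of all separate, and in water at 48 h, with 13.7%. The median log2 difference of the 6 probe sets was -0.07 and -0.29 for ethephon against water at 24 h and 48 h, against -0.03 and 0.02 over all tested probe sets. It was -0.64 for water at 24 h and -0.04 for water at 48 h against untreated tissue, against 0.05 and 0.03 over all.

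The spread between replicate arrays differed widely among the expansins. The standard deviation of log2 signal within groups was 1.98 for expB6, 0.88 for expB4, 0.87 for EXPA5 and 0.81 for expa1, which placed these 4 between the 89.6th and the 98.7th percentile of all tested probe sets. It was 0.22 for expB8, at the 23rd percentile, and 0.34 for its second probe set, with a median of 0.33 over all. The groups accounted for 62.4% of the variance for expB8 (89.1st percentile) and 52.5% for expa1, but 32.6% for expB4, 16.2% for the second expB8 probe set and 15.2% for expB6. The highest of the 15 arrays was 86.1 times the lowest for expB6, 11 times for expa1 and 2.45 times for expB8. The precision of each difference above follows from this spread.

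**Figure D3:**
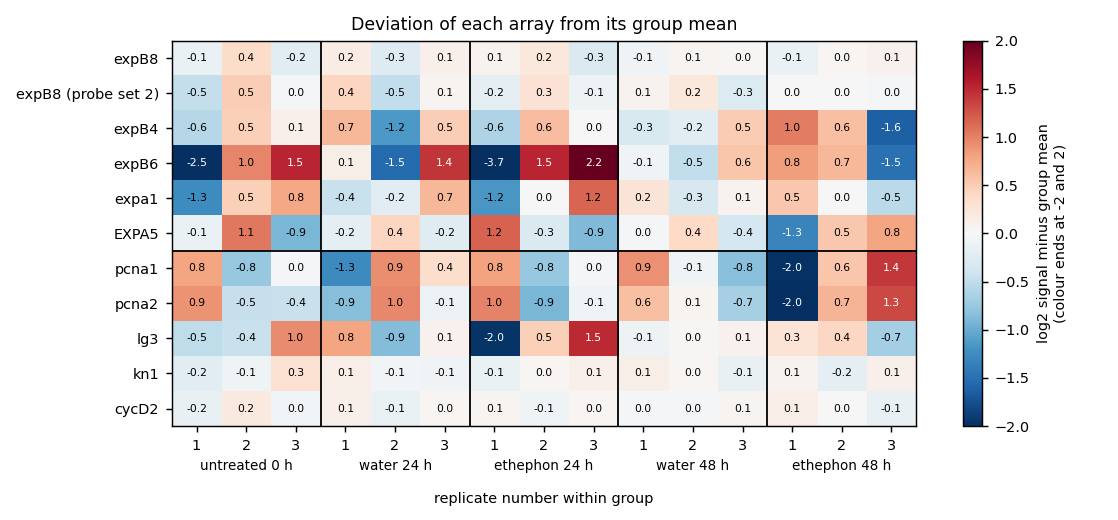
Deviation of each array's log2 signal from its group mean, for the 6 expansin probe sets (top) and 5 meristem and division markers (bottom), with arrays in columns by group and replicate number. On untreated replicate 1, water replicate 2 at 24 h, ethephon replicate 1 at 24 h and ethephon replicate 3 at 48 h, expB4, expB6 and expa1 are below their group means. On the same arrays pcna1 and pcna2 are above theirs.

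Of the variable expansins, expB6 moved with expa1 and with expB4 from array to array. After subtraction of the group means, expB6 and expa1 correlated over the 15 arrays at r = 0.90 (exact permutation within groups p = 0.00219, adjusted over 15 pairs 0.0328). This r was 0.81 without the 2 arrays where expB6 deviated most from its group mean. Without that subtraction r was 0.82 and Spearman's rho 0.85 (permutation p 3e-05 and 0.00014, adjusted 0.00045 and 0.0021), and r was 0.72 without the 2 arrays farthest from the median of expB6. Arrays low for both genes were untreated replicate 1, ethephon replicate 1 at 24 h and ethephon replicate 3 at 48 h. On water replicate 2 at 24 h expB6 was also low, at -1.54 from its group mean, but expa1 was only at -0.23. The pair expB4 and expB6 also moved together within groups, at r = 0.69 (exact permutation p = 0.00604, adjusted 0.0453) and 0.68 without the 2 arrays of largest expB4 deviation. Without subtraction of group means this pair gave r = 0.51 and rho = 0.58 (permutation p 0.053 for r). EXPA5 ran the other way, with within-group r of -0.60 against expB6, -0.56 against expa1 and -0.49 against expB4, none of which passed (exact permutation, adjusted p 0.234, 0.234 and 0.252). On ethephon replicate 1 at 24 h, for example, EXPA5 was at its highest of all arrays while expa1 and expB6 were at their lowest.

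**Figure D4:**
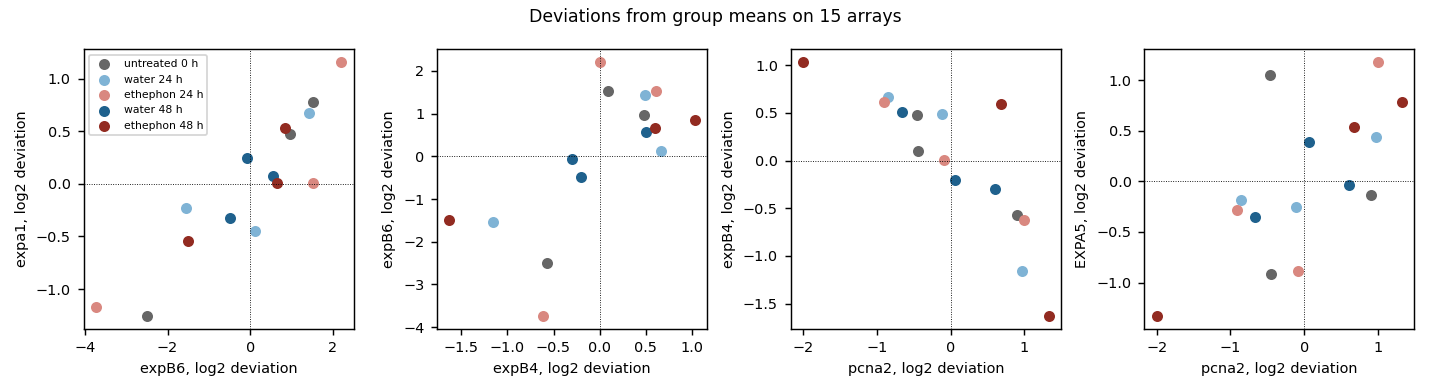
Deviations from the group means on the 15 arrays, as log2 signal on both axes, with points coloured by group. The first panel sets expa1 against expB6 (r = 0.90) and the second expB6 against expB4 (r = 0.69), and the panels on the right set expB4 (r = -0.84) and EXPA5 (r = 0.66) against pcna2.

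Of the 5 tested meristem and division markers, only cycD2 passed limma's test, and only in water at 24 h against untreated tissue. There it was lower, by -0.69 ± 0.13 on the log2 scale (adjusted p 0.0213), with 1.72% of all probe sets called. For ethephon against water at 24 h it was higher by 0.73 ± 0.13 (adjusted p 0.375). The markers differed in how they ran with the expansins from array to array. The signal of pcna2, a clamp for DNA replication, was 2003, 777.6 and 785.6 in untreated tissue, 762.5, 2688 and 1271 after water and 1746, 465.1 and 820.6 after ethephon at 24 h, and 2943, 2014 and 1218 after water and 303.2, 1939 and 3044 after ethephon at 48 h. Where pcna2 was high, expB4 was low. Over the 15 arrays expB4 and pcna2 correlated at r = -0.79 and rho = -0.81 (permutation p 0.00037 for r, adjusted over 30 pairs of an expansin and a marker 0.0108). Without the 2 arrays farthest from the median of expB4, r was -0.75. Within groups r was -0.84 (exact permutation p = 0.00772, adjusted 0.106), and for pcna1 it was -0.82. The cyclin cycD2 ran the other way, at 0.69 with expB4 within groups (exact permutation p = 0.0269, adjusted 0.126), and for kn1 the value was 0.03. For expB6 and pcna2 the within-group r was -0.66, and for EXPA5 and pcna2 it was 0.66 (exact permutation p = 0.0521, adjusted 0.149). The homeobox gene lg3 followed expB6 at r = 0.78 (permutation, adjusted p 0.0108), but rho was 0.618 (permutation, adjusted p 0.09). Without the 2 arrays farthest from the median of expB6, r was 0.515. Within groups r was 0.86 (exact permutation, adjusted p 0.106), and lg3 ran against EXPA5 at -0.73 within groups (adjusted p 0.106). Of the 30 pairs, 8 had an exact permutation p under 0.05 within groups and 0 passed after adjustment. The share of meristem and elongating cells in each sample was not measured, and its part in these differences was not tested.

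Among 903 other tested probe sets with exactly 1 gene, the closest to each expansin by Pearson's r of log2 signal over the 15 arrays were read off as a description. For expB8 they were Agpat4 (0.86), an acyltransferase of phospholipid synthesis, and vpp3 (0.85), a vacuolar proton pyrophosphatase. For expB4 they were the aquaporin gene pip1-2 (0.85) and dxs1 (0.84), the entry enzyme of the plastid isoprenoid pathway. For expB6 they were see2b (0.88), a legumain-like protease, and the hemoglobin gene Hb2 (0.88). For expa1 they were spp1 (0.88), sucrose-phosphate phosphatase, and Lsi1 (0.87), named after a silicon channel of rice. For EXPA5 they were Agp2 (0.78), a subunit of ADP-glucose pyrophosphorylase, and GP (0.77). All pairs share the same arrays, and the highest of 903 correlations is high by selection.

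The other tested expansins on the array had higher means after ethephon. Of 9 probe sets for 6 further genes (expa2, expA3, expA4, expB3, expB5 and expB7), 4 passed the minimum signal, namely those of expA3 and expB3 and a pair for expA4. All 4 of 4 were higher in ethephon than in water at 24 h, by 0.42 to 0.94 on the log2 scale, and at 48 h, by 0.14 to 0.87, and 0 passed limma's test. Over all tested probe sets 46.6% and 52.8% were higher at these times. Among the untested probe sets, the third of expA4 and that of expa2 had lower means after ethephon at both times. Those of expB5 and expB7 were higher at 24 h or at 48 h but not at both. The arrays of expB3 did not overlap at 24 h, with 487.7, 308.7 and 367.2 after ethephon and 155.5, 281.4 and 177.8 after water (log2 difference 0.94 ± 0.59, adjusted p 0.577). Of all tested probe sets, 17.8% did not overlap in that comparison, in either direction. In the reference annotation expB8 has 1 gene between it and expB5, expB6 has 5 genes between it and expB7, and EXPB9 has 9 between it and EXPB1. Whether the probes of 1 expansin also bind transcripts of a close copy was not tested.

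Other genes of wall growth also passed no test. After ethephon the 6 tested cellulose synthases of the primary wall, cesa2, cesa3 and cesa5 to cesa8, had a median log2 difference of 0.09 at 24 h and 0.27 at 48 h. The 3 of the secondary wall, cesa10, cesa11 and CesA12, were higher in 3 of 3 at both times, with medians of 1.31 and 0.72, where 46.6% and 52.8% of all tested probe sets were higher. At 24 h this came from ethephon replicate 3, with 5020, 5427 and 5611 for the 3 genes in that order. The other ethephon arrays read 182.4 and 90.7 for cesa10, 241.8 and 299.6 for cesa11 and 428.1 and 326.2 for CesA12, all within or below the range of the water arrays. The 5 tested wall proteins and enzymes, among them the hydroxyproline-rich glycoprotein HRGP, the COBRA-like bk2 and the xyloglucan endotransglucosylase xet1, had medians of 0.84 and 0.56, and bk2 and xet1 were also far higher on ethephon replicate 3 at 24 h (5925 and 5067) than on any other array of that time. The proton pump gene mha4 differed by -0.09 and -0.04. None of these lists had a member past the adjusted p of 0.05 in any of the 5 comparisons (0 calls by limma, and at an unadjusted p under 0.05 only 1, a primary wall cellulose synthase in water at 24 h against untreated).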

How the data were processed

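The authors deposited linear MAS5 intensity values, per the submitters' processing notes; the MAS5 version, its scaling target and the genome build are not given in the sources used here. Affymetrix MAS5 summarises perfect-match and mismatch probes per probe set on each array separately, so dim values are noisy. Signals were taken to log2 as deposited, 113 control probe sets were left out, and 10573 probe sets with a mean signal at or above the 40th percentile (218.3) were tested. limma 3.58.1 in R 4.3.3 fitted 5 group means with moderated variances along the mean signal (10 residual and 2.62 prior degrees of freedom), with Benjamini-Hochberg adjustment over all kept probe sets and a threshold of 0.05. The precision is limited by 3 arrays a group. The labels' replicate numbers did not pair the arrays.

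Correlations used 100000 permutations, or all 7776 rearrangements within groups for deviations from group means. The rearrangement within groups and the fit were tested on simulated data, and the 100000 permutations were not. Gene names came from the array's annotation, updated through RefSeq (Zm-B73-REFERENCE-NAM-5.0). The genes described are all probe sets of the 6 expansins, the 2 most similar named genes for each tested expansin, other expansins, and lists of wall and marker genes. The members and lists were chosen with earlier results of these data known. Alternatives were an offset of 32, no filter or the 60th percentile, quantile or median scaling, array weights, only the groups compared, no trend, the replicate number as a block, the 3' to 5' ratio as a covariate, and leaving out single arrays.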

Additional observations from a re-analysis of the deposited data

How the results depend on the processing

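No expansin passed in any of 86 fits (0 calls by limma), and the lowest adjusted p was 0.0797. Of the 30 differences, 13 kept their sign in every setting. With all arrays 14 of 300 values changed sign. An offset of 32 gave 0.00979 for expB6 at 24 h after ethephon. Array weights gave 0.72 for expB6 and -0.10 for expa1 at 24 h, 0.34 for EXPA5 and -0.13 for expB8 in the change of response, and 0.00909 and 0.21 for the second expB8 probe set in water at 24 h and 48 h against untreated. The 3' to 5' covariate gave 0.53 for EXPA5 at 48 h, 0.57 for its change of response, and 0.27 and 0.0189 for that second probe set against untreated. Median scaling gave -0.0349 for the change of response of expB8 and -0.0652 for expa1 in water at 48 h. Quantile scaling gave 0.0277 for the second expB8 probe set in water at 24 h.

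With 1 array left out, 39 of 216 values changed sign. EXPA5 ran from -0.77 to 0.27, -0.67 to 0.39, -0.54 to 0.57, -0.29 to 0.70 and -0.28 to 0.71 in the 5 comparisons, in the order of the report. Ethephon against water at 24 h ran from -1.28 to 1.69 for expB6 and -0.55 to 0.62 for expa1, and at 48 h from -0.30 to 1.03 for expB4 and -0.0608 to 0.18 for the second expB8 probe set. The change of response ran from -1.09 to 0.24 for expB4, -2.48 to 0.49 for expB6, -0.12 to 0.16 for expB8 and -0.46 to 0.0069 for its second probe set. Against untreated, that probe set ran from -0.30 to 0.19 and -0.33 to 0.16, and water at 48 h gave -0.56 to 1.45 for expB6 and -0.62 to 0.40 for expa1. The cause of these changes was not tested.

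Over all probe sets, array weights raised the calls from 0 to 169 for ethephon against water at 24 h, from 182 to 326 for water at 24 h and from 84 to 189 for water at 48 h against untreated. Both latter counts were 11 and 6 with only the groups compared. The first of them was 13 with the covariate and 96 with the replicate block, which gave 62 at 48 h, passed 0 expansins and changed no call of one. Same-numbered arrays of 30 pairs of groups deviated together at r over 0.1 in 10. Single arrays left out gave 68 to 176 and 49 to 68 calls against untreated, 2 at 24 h without water replicate 1, and 1 at 48 h and 1 in the change of response without water replicate 1 at 48 h.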

Other observations

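The wall enzyme gene xet1, chosen after its values were seen, ranged from 7.16 to 5067 over the 15 arrays. It read 12.68, 303 and 1759 in untreated tissue, 15.34, 7.16 and 14.5 after water and 16.32, 115.2 and 5067 after ethephon at 24 h. At 48 h it read 57.6, 84.12 and 173.9 after water and 1732, 420 and 29.14 after ethephon. All 3 ethephon arrays at 24 h were above all 3 water arrays, by as little as 16.32 against 15.34, and the log2 difference of 4.18 ± 2.11 did not pass limma's test (adjusted p 0.563).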
